A study of Mus musculus with 6 samples.

Results

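The serpins and the plasminogen activator system were examined in double negative thymocytes, which are T cell precursors at the stage before CD4 and CD8 appear. The members are the array's probe sets whose gene symbol begins with Serpina to Serpini, together with those of Plau, Plat and Plaur. There were 43 such genes of 18193 with a symbol, on 64 probe sets of 45037. Of the 64, 61 carried a single gene symbol and 3 carried several symbols and are left unnamed. Of the 61, 56 belong to 40 serpin genes and 5 to the plasminogen activators and their receptor.

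The cells came from 3 mice labelled wild type (WT) and 3 labelled double knockout (DKO) for Egr1 and Egr3, zinc finger transcription factors that pre-TCR signalling induces. The sample descriptions number 1 animal for each single-colour array and give cells sorted by flow cytometry, with amplified RNA, whereas titles and source names give whole thymus. For strain, age, sex and allele design, nothing is stated in the labels. The comparison asks which of these transcripts differ between thymocytes of the 2 genotypes.

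Serpins are protein inhibitors that offer a protease an exposed reactive loop, and the attacking enzyme is trapped on the inhibitor in an irreversible complex. Clade A members are mostly secreted plasma proteins made in liver, clade B members stay mainly inside the cell, and a few serpins inhibit no protease and carry hormones or assist protein folding. Plau and Plat encode the activators urokinase and tissue plasminogen activator, which cut plasminogen to the protease plasmin, and Plaur encodes the receptor that holds urokinase at the cell surface.

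The arrays need 4 remarks before the results. The targeted gene Egr1 read between 455 and 509 (WT) and between 1221 and 1757 (DKO), so that directions are stated by label only. Where this probe set lies relative to the disrupted sequence is unknown here, so it may check nothing. Egr3 was dim, its brighter probe set giving 92.2, 83.1 and 30.8 (WT) and between 32.9 and 45.8 (DKO). WT replicate 3 stood apart in granulocyte markers, whose summed intensity over 12 genes was 366 there, 11610 and 25200 on the other WT arrays and between 18630 and 27990 (DKO). WT replicate 1 and the DKO-labelled arrays gave signals of both Xist and the Y-linked gene Eif2s3y (476 on WT replicate 1, between 186 and 265 for DKO, and 13.2 and 0.625 on the other WT arrays), and whether each held RNA of 1 animal cannot be told from the table. The results are therefore given without single arrays as well. Of 9 genes listed as markers of double negative thymocytes, 3 (Ptcra, Il2ra, Dntt) passed as lower under the DKO label and none as higher. Over all probe sets tested, 2.11% passed as lower. The summed intensity of all 9 was between 38050 and 49420 (WT) and between 24890 and 28180 on the others. Whether these genes mark only that stage was not tested. Cd4 lay under the brightest control probe set for genes of the bacterium Bacillus subtilis on every array, a level between 19.0 and 29.9 that is used below as a mark of dim signal. Cd4 comes from a list of mature T cell genes, of which S1pr1 was also under that level throughout. Cd8a read between 82.9 and 197 (WT) and between 68.5 and 85.95 (DKO), and Cd8b1 between 70.4 and 119 and between 65.9 and 137. Cd5 read between 104 and 237 over all arrays. Ccr7 read 17.4, 67.3 and 11.4 (WT) and 58.5, 43.4 and 83.3 (DKO), with overlapping groups. Its log2 change was 0.825 (SE 0.40, adjusted p = 0.304 in limma), and that of Cd8a was -0.51, the only one below 0 among the tested genes of the list. Of 5 tested genes of that list Klf2 passed as higher and none as lower, beside 2.91% and 2.11% of all probe sets tested. The part of such cells was not tested. In bulk RNA, fewer cells of a type and less RNA per cell cannot be told apart.

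Most members were dim. The mean intensity reached 50 in at least 1 group for 10 of the 61 probe sets, which belong to 8 genes: Plaur, Serpinb1a (2 probe sets), Serpinb6a, Serpinb6b, Serpinb6e, Serpinb9 (2 probe sets), Serpinf1 and Serpini1. Of the 10, 3, those of Plaur and Serpinf1 and probe set 1439790_at of Serpinb9, reached it under the DKO label only, and that of Serpini1 in the WT arrays only. Nearest above this level were Serpini1, with a WT mean of 52.0, and probe set 1439790_at of Serpinb9, with a DKO mean of 53.3. Nearest below it was Serpind1, with a WT mean of 34.9. On 34 of the 61 probe sets no array exceeded the brightest bacterial control. The intensity filter of the test kept 23 probe sets of 19 genes, and 38 were not tested.

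Of the 23 tested, 5 probe sets of 4 genes rose under the DKO label at an adjusted p under 0.05 in limma, and none fell, with 2 lower at an unadjusted p under 0.05. Over all 27022 probe sets tested, 5.03% passed in either direction, 2.91% as higher and 2.11% as lower. The median log2 change was 0.13 over the 23 members and 0.00 over all tested, where a log2 change is that of intensity plus 16, DKO minus WT. The 5 were the single probe set of Plaur, both of Serpinb1a, and those of Serpinb6a and Serpinb6b. The groups did not overlap in 7 tested members as higher and in 2 as lower, beside 13.2% and 11% of all tested probe sets. Over all 61 they did not overlap in 10 as higher and 5 as lower, beside 10.2% and 8.71% of all probe sets. Without the intensity filter 4 member probe sets were called, all higher, beside 2.12% of all probe sets in either direction and 1.25% as higher. With a filter at a mean intensity of 50 in a group 5 of 10 were called, beside 9.71% and 5.48% of the probe sets so kept. That filter uses the group means themselves. Of the 10, 3, Plaur among them, passed it through the DKO-labelled arrays only, so this count is no independent support for the calls.

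**Figure D1:**
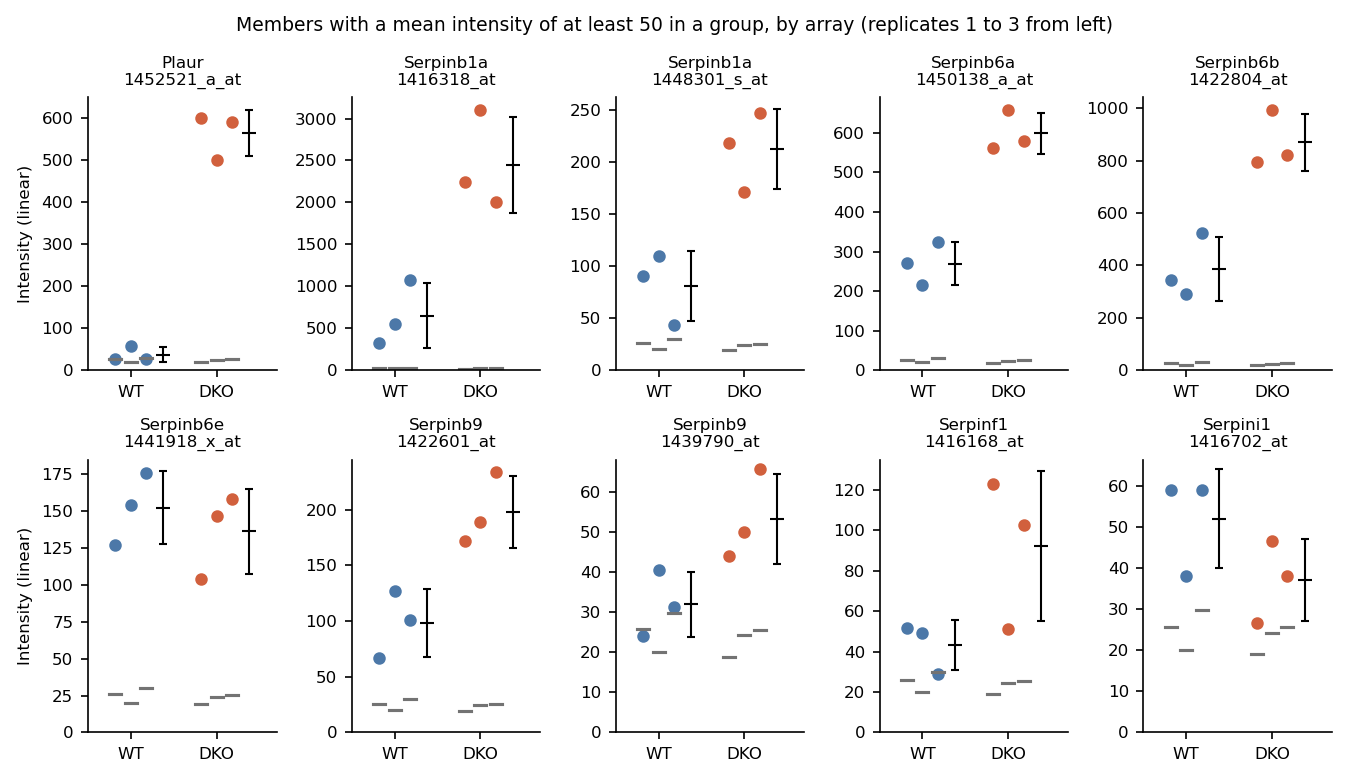
Linear intensity on each array of the 10 probe sets with a mean of at least 50 in a group, with WT arrays in blue and DKO-labelled arrays in orange, replicates 1 to 3 from left. Black bars give the mean and SD of 3 arrays and grey dashes the brightest bacterial control on that array. Plaur lies between 26.8 and 56.9 (WT) and between 500 and 601 on the others.

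Plaur, the urokinase receptor, showed the largest change of the 61 probe sets. Its intensity was 27.5, 56.9 and 26.8 on WT replicates 1 to 3 and 601, 500 and 591 (DKO). The groups were far apart. WT replicates 1 and 3 were close to the brightest bacterial control, which replicate 3 did not exceed, and replicate 2 was above it. The means were 37.1 ± 17.2 and 564 ± 55.3 (SD, n = 3 each), a ratio of 15.2, and the log2 change was 3.47 (SE 0.29, adjusted p = 7.34e-05). With WT replicates 1 and 3 near that control, the log2 change moved with the offset: 3.95 at an offset of 1 and 2.64 at an offset of 64. Leaving out any 1 array gave log2 changes between 3.33 and 3.76 with adjusted p up to 0.00114.

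Plaur is also a gene of granulocytes and other myeloid cells, and the granulocyte sums are given above. WT replicate 2, whose granulocyte sum of 25200 lay within the range of the DKO-labelled arrays, read 56.9 for Plaur, and WT replicate 3, nearly without these transcripts, read 26.8. Without replicate 3 the change of Plaur was 3.33 (SE 0.29, adjusted p = 3.9e-05). Of the 12 granulocyte genes, none passed the test in either direction. Their largest log2 changes were 3.10 (SE 1.51) for S100a8, 2.91 (SE 1.28) for Lcn2 and 2.49 (SE 1.47) for S100a9. Only Mpo (-0.69, SE 0.37) and Elane (-0.16, SE 0.24) were below 0. Of 10 tested macrophage and dendritic cell genes none passed, with sums between 1119 and 3378 (WT) and between 2195 and 2481 on the others, and C1qc under the bacterial control on every array. The part of myeloid cells in the Plaur signal was not tested.

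The plasminogen activators themselves were dim, with most values under the bacterial control. Plau, urokinase, read between 1.18 and 3.75 on probe set 1422139_at and between 1.20 and 21.7 on 1422138_at, and neither entered the test. The highest Plau value, 21.7 on WT replicate 2, was the only one of either probe set above the bacterial control. Plat, tissue plasminogen activator, read 27.8, 9.65 and 21.8 (WT) and 28.7, 15.9 and 24.8 on the others on probe set 1415806_at. The groups overlapped, with a log2 change of 0.13 (SE 0.29, adjusted p = 0.859), and 1458553_at gave -0.06 (SE 0.35, adjusted p = 0.951).

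Of the direct inhibitors of the system that were measured, none passed. Serpinb2, plasminogen activator inhibitor type 2, read between 0.977 and 9.52 and was not tested. Serpinf2, the plasmin inhibitor antiplasmin, read 47.4, 8.79 and 5.10 (WT) and 38.1, 37.9 and 6.87 on the others. Its values were spread as widely within the groups as between them (log2 change 0.32, SE 0.45, adjusted p = 0.766). Serpini1, neuroserpin, an inhibitor of tissue plasminogen activator known from neurons, read 58.9, 38 and 59.0 (WT) and 26.7, 46.6 and 37.9 (DKO) on probe set 1416702_at. The groups overlapped (log2 change -0.38, SE 0.25, adjusted p = 0.472). Its probe set 1448443_at had a log2 change of 0.00 (SE 0.26, adjusted p = 0.995), and 1443756_at stayed at or under 10.02 and was not tested.

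The promoter of Plaur is shown because this gene changed most, beside those of Serpinb6b and Serpinb6a, which also rose. That of Serpinb1a is not shown. Each is the 250 bases before the RefSeq transcription start on GRCm38.p6, on the gene's strand, and Serpinb6a has 2 annotated starts. Capitals mark matches, on either strand, to the letters GCGNGGGCG (EGR consensus), TGANTCA (AP-1), GGGCGG (GC box, which can overlap the EGR letters) and GAGGAAG (ETS type).
Plaur, chr7:24462233-24462482, plus strand: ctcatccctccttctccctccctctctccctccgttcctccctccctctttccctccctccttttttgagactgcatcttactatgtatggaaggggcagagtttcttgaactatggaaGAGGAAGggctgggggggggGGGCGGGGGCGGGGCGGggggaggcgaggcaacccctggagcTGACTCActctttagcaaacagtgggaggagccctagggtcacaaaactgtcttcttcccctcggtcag
Serpinb6b, chr13:32965011-32965260, plus strand: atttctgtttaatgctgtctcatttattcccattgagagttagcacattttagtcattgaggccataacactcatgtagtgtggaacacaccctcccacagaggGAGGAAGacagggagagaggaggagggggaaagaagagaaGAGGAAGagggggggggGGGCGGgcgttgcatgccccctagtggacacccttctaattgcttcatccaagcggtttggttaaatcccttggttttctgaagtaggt
Serpinb6a, chr13:34002795-34003044, minus strand: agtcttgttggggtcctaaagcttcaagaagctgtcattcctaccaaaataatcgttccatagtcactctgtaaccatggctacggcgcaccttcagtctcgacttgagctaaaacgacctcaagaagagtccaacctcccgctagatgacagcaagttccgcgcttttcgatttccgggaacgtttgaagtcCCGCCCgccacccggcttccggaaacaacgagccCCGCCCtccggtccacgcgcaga
Serpinb6a second start, chr13:33936084-33936333, minus strand: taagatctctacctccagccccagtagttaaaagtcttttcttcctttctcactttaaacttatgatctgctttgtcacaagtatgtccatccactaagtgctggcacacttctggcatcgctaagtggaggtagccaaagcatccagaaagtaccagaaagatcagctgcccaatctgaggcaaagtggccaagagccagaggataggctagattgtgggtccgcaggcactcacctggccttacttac

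The Plaur window held 1 match to the EGR letters, GCGGGGGCG, starting 109 bases before the start and overlapping GC box letters, and 1 match to the AP-1 letters, TGACTCA, starting 69 bases before it. EGR letters were found in 4.7% of 32851 promoter windows of the same length, AP-1 letters in 6.75%, GC box letters in 32.7% and ETS letters in 10.6%. Of 41 windows available for 35 of the 43 member genes, that of Plaur was the only one with the EGR letters, and 10 held the AP-1 letters. The Plaur window also held 1 match to the ETS letters. The Serpinb6b window held 1 GC box match and 2 ETS matches, that of the first start of Serpinb6a held 2 GC box matches, both without EGR letters, and that of the second start held none of the 4. These matches describe letters, and binding was not measured.

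Among clade B serpins, the inhibitors that act inside cells, 4 of 10 tested probe sets rose, beside 2.91% of all tested, and none fell, with 1 lower at an unadjusted p under 0.05. Serpinb1a, an inhibitor of neutrophil elastase and related granule proteases, read 327, 552 and 1075 (WT) and 2243, 3098 and 2008 (DKO) on probe set 1416318_at. The lowest DKO-labelled array was above the highest wild type array. The means were 651 ± 384 and 2450 ± 574 (SD, n = 3 each), and the log2 change was 2.00 (SE 0.37, adjusted p = 0.00934). Probe set 1448301_s_at read 90.4, 110 and 43.8 against 219, 171 and 248, again without overlap, with a log2 change of 1.27 (SE 0.31, adjusted p = 0.04).

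The 2 probe sets of Serpinb1a ordered the WT arrays differently. WT replicate 3 was the highest on 1416318_at and the lowest on 1448301_s_at, whose suffix marks probes that can read several transcripts. That array was the one nearly without granulocyte transcripts. Without it the log2 changes were 2.43 (SE 0.28, adjusted p = 0.000291) and 0.94 (SE 0.27, adjusted p = 0.0415). The call on 1416318_at was lost without WT replicate 2 or without DKO replicate 1 or 2 (adjusted p of 0.0527, 0.0531 and 0.051). That on 1448301_s_at was lost without WT replicate 1 (adjusted p = 0.0879) or any 1 of the DKO-labelled arrays (adjusted p between 0.0691 and 0.168). The change stayed between 1.58 and 2.43 on the former and between 0.94 and 1.52 on the latter.

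Serpinb6a, an inhibitor of cathepsin G and other proteases that is made in many tissues, read 271, 214 and 324 (WT) and 561, 658 and 578 (DKO). The groups were apart, with a log2 change of 1.10 (SE 0.24, adjusted p = 0.0222) and a ratio of means of 2.22. Serpinb6b, its close relative, read 343, 291 and 524 against 795, 993 and 821, also without overlap, with a log2 change of 1.16 (SE 0.26, adjusted p = 0.0263) and a ratio of 2.25. In both genes the highest wild type array was replicate 3 and the highest DKO-labelled array was replicate 2.

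The calls of Serpinb6a and Serpinb6b held without WT replicate 3 (log2 changes of 1.23 and 1.38, adjusted p of 0.00601 and 0.00284) and were lost without any 1 of the other 5 arrays, where adjusted p was between 0.0562 and 0.128 for Serpinb6a and between 0.0788 and 0.129 for Serpinb6b. Over the 6 fits that leave out 1 array the changes stayed between 0.99 and 1.23 for Serpinb6a and between 1.02 and 1.38 for Serpinb6b.

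**Figure D2:**
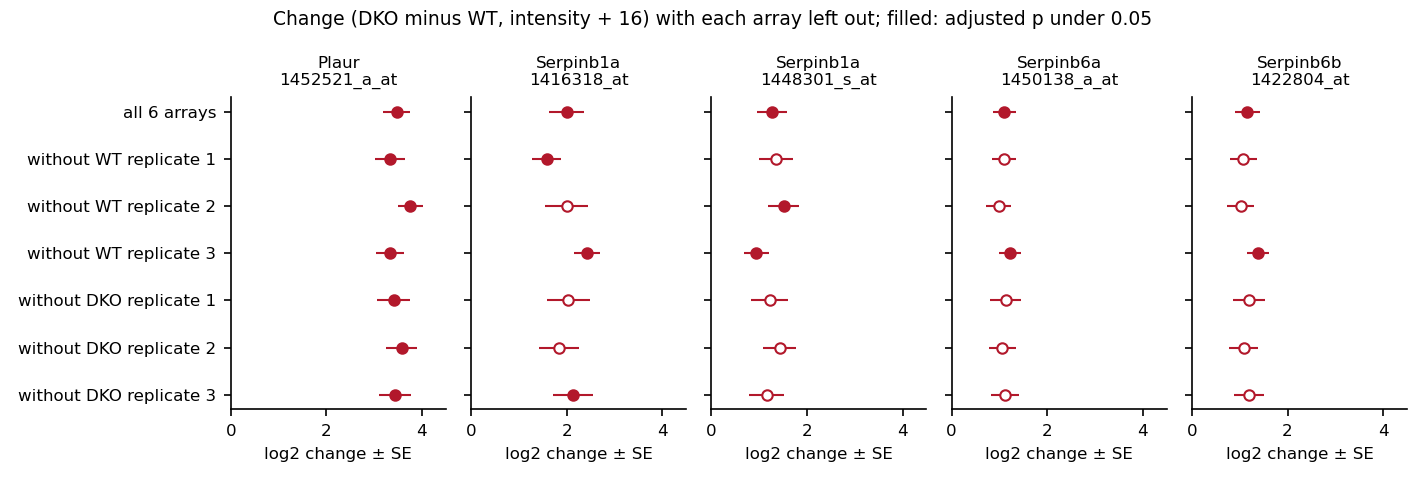
Log2 change (DKO minus WT) of intensity plus 16 with its SE for the 5 called probe sets, with all 6 arrays and with each array left out. Filled points have an adjusted p under 0.05. Plaur is filled throughout, whereas Serpinb6a and Serpinb6b are filled with all arrays and without WT replicate 3 only.

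Other clade B members did not pass. Serpinb9, the inhibitor of granzyme B that protects cytotoxic lymphocytes from their own granules, read 66.7, 127 and 101 (WT) and 172, 189 and 234 (DKO) on probe set 1422601_at. The groups did not overlap, but the log2 change of 0.92 (SE 0.28) had an adjusted p of 0.0877. Its other probe set read 24.1, 40.4 and 31.3 against 44.1, 49.9 and 65.8, also without overlap (log2 change 0.51, SE 0.26, adjusted p = 0.321). Neither was called under any of the alternatives tried (adjusted p between 0.0613 and 0.247 for the former and between 0.258 and 0.594 for the latter). Serpinb6e, of the same subfamily as Serpinb6a, read 127, 154 and 176 against 104, 147 and 158, and its groups overlapped (log2 change -0.17, SE 0.25, adjusted p = 0.782). Its suffix marks a probe set with probes that may cross-react, and signal shared among these close relatives cannot be split here.

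Protease genes that meet these inhibitors were read from a companion list. Of 27 probe sets tested of proteases that serpins inhibit, 3 rose and none fell, with 1 lower at an unadjusted p under 0.05 (11.1% called, median log2 change 0.09). The granzyme gene Gzmb read 47.7, 47.7 and 45.6 (WT) and 145, 164 and 168 on the others (log2 change 1.45, SE 0.22, adjusted p = 0.00382), and the inflammatory caspases Casp4 (1.24, SE 0.25, adjusted p = 0.0164) and Casp1 (1.01, SE 0.24, adjusted p = 0.0374) were the others. The list had 1 call without any 1 of the DKO-labelled arrays, 2 without WT replicate 1 or 2 and 6 without WT replicate 3. Elane, neutrophil elastase, a target of Serpinb1a, read between 28.2 and 45.3 on all arrays (log2 change -0.16, SE 0.24, adjusted p = 0.786). Of the 6 tested markers of NK and cytotoxic cells, Nkg7 and Klrd1 were higher and none was lower, and Ncr1 was under the bacterial control on every array. Over all probe sets tested, 2.91% were higher. The others did not pass, with log2 changes of 0.84 for Tbx21 (adjusted p = 0.0558), 0.35 for Prf1, -0.08 for Gzma and -0.48 for Klre1. Nkg7 read between 162 and 279 (WT) and between 1243 and 2423 (DKO). The list's sums, between 11440 and 16300 (WT) and between 14230 and 15150 (DKO), were mostly the signal of Gzma, which read between 10730 and 15850 (WT) and between 10490 and 13000 (DKO). The part of such cells in the Serpinb9 values was not tested.

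Of the 4 called genes, 3 lie in 1 cluster on chromosome 13, in the RefSeq gene order of GRCm38.p6, where 17 Serpinb genes are annotated. A further 17 genes are annotated between them, and the order below is of the Serpinb genes alone. Of these, 11 genes had a probe set of their own, with 14 probe sets, and 6 were not analysed here. Of the 6 genes tested, Serpinb1a, Serpinb6b and Serpinb6a rose, and none fell, with 1 probe set, that of Serpinb9b, lower at an unadjusted p under 0.05. Over all probe sets tested 2.91% rose, and with 1 probe set per gene 6.98% of 13187 passed in either direction. Serpinb1a and Serpinb6a stand at opposite ends of the order, and Serpinb6b is the fourth Serpinb gene from the Serpinb1a end, followed by Serpinb9. Serpinb9b, which follows Serpinb9, read 20.7, 26.0 and 24.5 (WT) and 7.31, 18.3 and 5.62 on the others, lower without overlap (log2 change -0.64, SE 0.29, adjusted p = 0.264). It was named after its values were seen, as was Serpinb9g, which read between 10.4 and 14.1 against between 2.97 and 5.93 and was under the filter. Of serpins outside the cluster, none of 12 probe sets of 11 genes passed, with 2 at an unadjusted p under 0.05. The difference between cluster and other serpins was not tested.

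**Figure D3:**
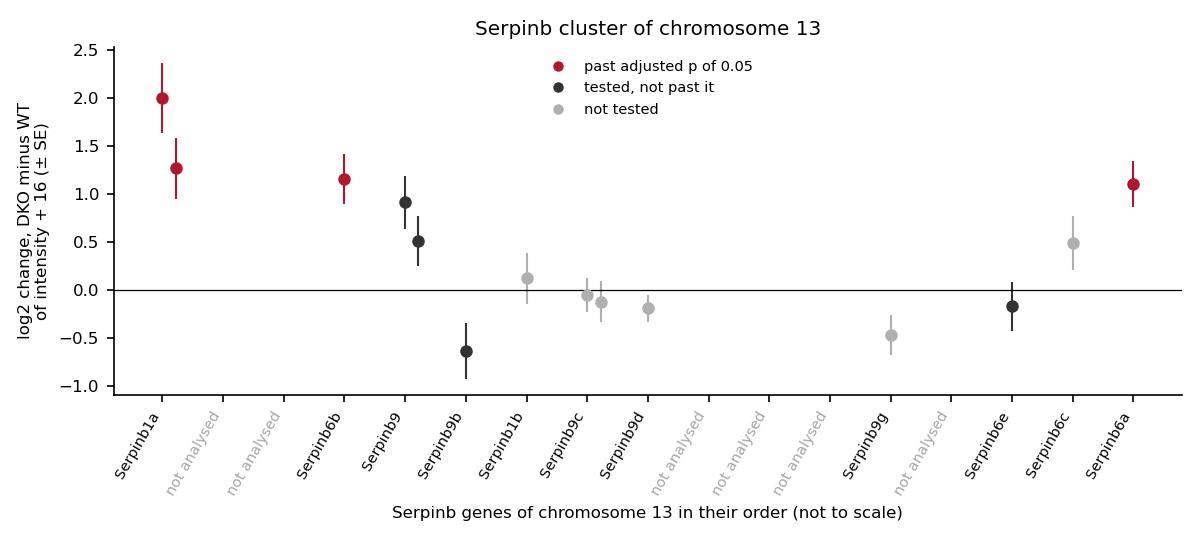
Log2 change (DKO minus WT) of intensity plus 16 with its SE for the 14 probe sets of the Serpinb cluster on chromosome 13, in gene order and not to scale, with 2 points for a gene with 2 probe sets. Red points passed the test, black points were tested and did not, and grey points were under the intensity filter, with values from the fit without it. The called genes sit at both ends of the order of Serpinb genes and at the fourth place. Other genes annotated between them are not drawn.

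Of the other clades, Serpinf1, the pigment epithelium-derived factor, which inhibits no protease, read 51.8, 49.2 and 29.1 (WT) and 123, 51.2 and 103 (DKO). The groups overlapped narrowly, since DKO replicate 2 read below WT replicate 1, and the log2 change was 0.81 (SE 0.32, adjusted p = 0.193). Its probe set 1453724_a_at read between 4.48 and 9.93 and was not tested. Serpind1, heparin cofactor II, a thrombin inhibitor of plasma, was chosen after its values were seen. It read 27.4, 27.2 and 50.01 (WT) and 3.55, 5.81 and 21.6 on the others, so that the groups did not overlap and all DKO-labelled arrays were under the bacterial control (log2 change -1.0, SE 0.33, adjusted p = 0.111).

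Clade A, which holds the antitrypsins and the antichymotrypsins of plasma, was dim, with 11 of 18 probe sets never above the bacterial control. None of its probe sets reached a mean of 50, 3 were tested and none passed or had an unadjusted p under 0.05, and its highest intensity on any array was 41.0. Serpina6, corticosteroid-binding globulin, and Serpina3a, a relative of antichymotrypsin, were both chosen after their values were seen. Serpina6 read 3.21, 3.28 and 3.39 (WT) and 29.6, 22.7 and 19.4 (DKO). Serpina3a read 3.00, 3.68 and 0.868 against 19.6, 29.1 and 20.0. Both were higher without overlap, as were 10.2% of all 45037 probe sets. All their wild type values were under the bacterial control, as were 2 of the 3 values of Serpina6 and 1 of Serpina3a under the DKO label, and without the intensity filter the adjusted p was 0.0637 and 0.0502.

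The naming rule, given with the processing, does not cover 31 genes on 42 probe sets, of which 9 were tested and none was called. Serpinh1, Serping1, Serpinc1 and Serpinb5 are among these genes. Serpinh1, the collagen chaperone of the endoplasmic reticulum, read between 15.8 and 51.8 on probe set 1456733_x_at, with overlapping groups (log2 change 0.13, SE 0.32, adjusted p = 0.877), and 1450843_a_at was under the bacterial control on all arrays. Serping1, the C1 inhibitor of complement, read between 3.22 and 19.5 and was not tested. Serpinc1, antithrombin, read between 12.2 and 21.2 with a log2 change of -0.17 (SE 0.28, adjusted p = 0.805). Serpinb5, the tumour suppressor maspin, had 4 probe sets between 0.295 and 24.3, of which 1421752_a_at was tested (log2 change 0.24, SE 0.33, adjusted p = 0.761). The other 3 had log2 changes below 0 in the fit without the filter, and 1424623_at, chosen after its values were seen, read 12.5, 16.5 and 8.22 (WT) and between 1.7 and 2.25 (DKO), lower without overlap and under the bacterial control on all arrays (log2 change -0.68, SE 0.21, adjusted p = 0.145 without the filter). The 3 probe sets with several symbols read between 0.211 and 16.4 and were not tested.

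**Figure D4:**
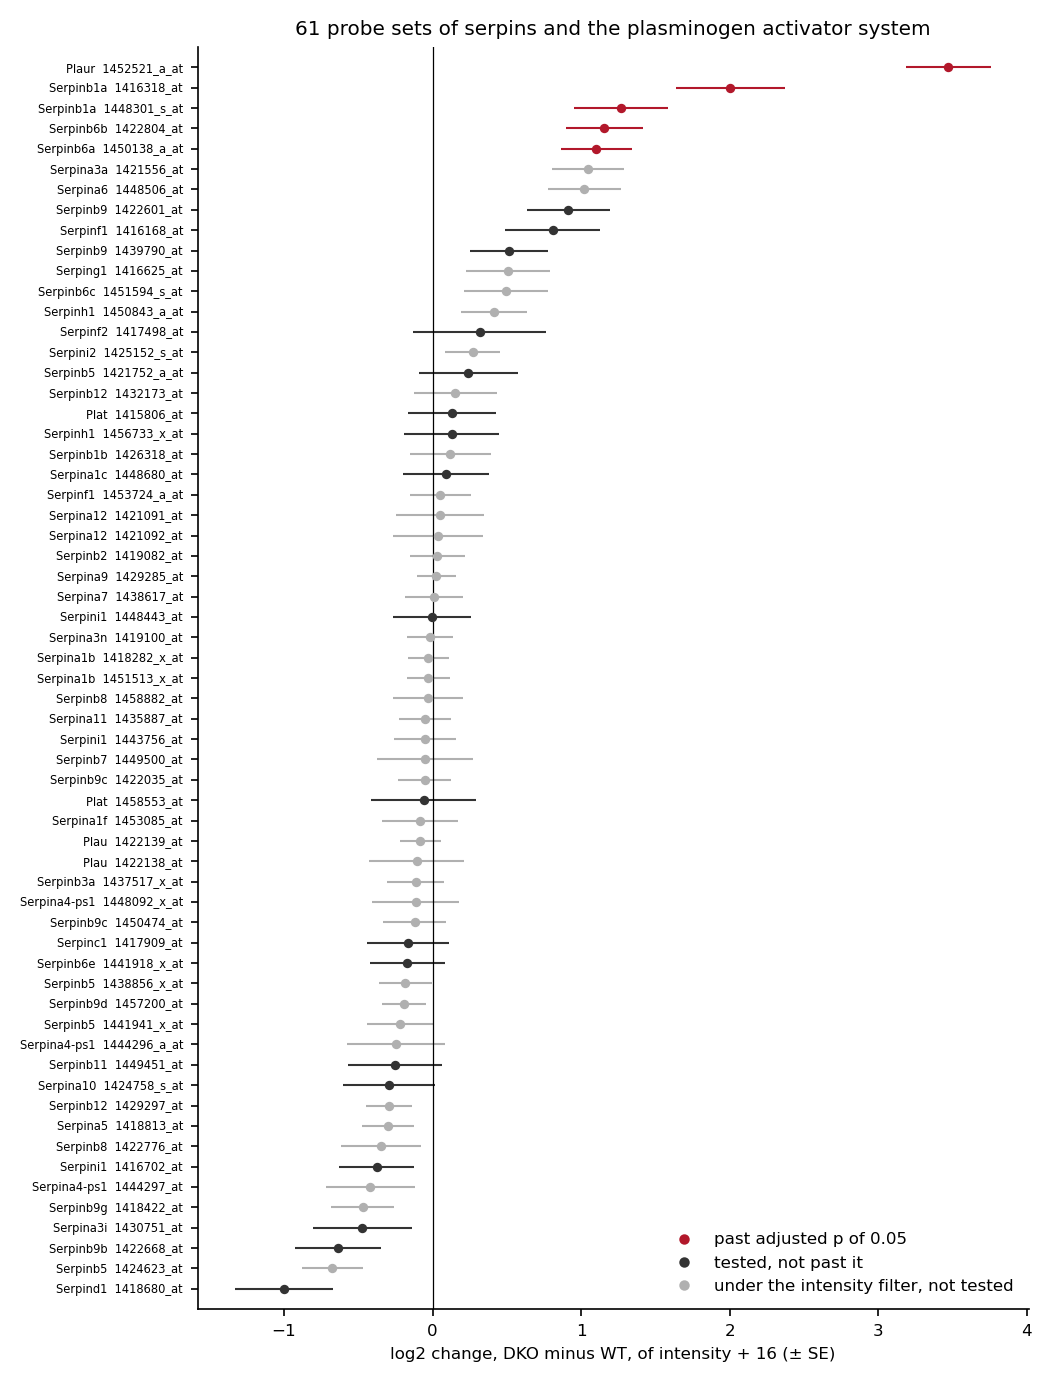
Log2 change (DKO minus WT) of intensity plus 16 with its SE for each of the 61 probe sets, ordered by value. Red points passed an adjusted p of 0.05, black points were tested and did not, and grey points were under the intensity filter, with values from the fit without it. The 5 red points at the top run from 1.10 for Serpinb6a to 3.47 for Plaur, and no red point lies below 0.

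A further 3 companion lists were read for the rest of the pathway, and all 4 lists were chosen with earlier results of these data known. Of 25 probe sets of plasminogen system partners tested, 1 rose and none fell (4% called, median log2 change 0.31, with 7 higher and 0 lower at an unadjusted p under 0.05). It was Itgb3, an integrin subunit that binds vitronectin, which read 87.7, 156 and 69.0 against 262, 360 and 205 (log2 change 1.29, SE 0.32, adjusted p = 0.0399). For the 7 at an unadjusted p, no share of all probe sets is given here to read them against, so they are not taken as a result about the list. The 4% called lay under the 5.03% of all probe sets tested. No partner was called at an offset of 1, without the filter, without the trend or without WT replicate 1, DKO replicate 1 or DKO replicate 3, and 3 were without WT replicate 3 and 5 with array weights. Of 24 probe sets of other protease inhibitors, 3 rose and none fell, with 1 lower at an unadjusted p under 0.05 (12.5% called, median 0.06). These were the cysteine protease inhibitors Stfa3 (4.02, SE 0.37, adjusted p = 0.000121), Stfa2l1 (3.79, SE 0.42) and Cst7 (1.24, SE 0.29), and 2 were called without WT replicate 1, DKO replicate 1 or DKO replicate 2. Of 16 probe sets of collagen folding partners of Serpinh1, P4ha2, a prolyl hydroxylase subunit, alone passed (1.42, SE 0.33, adjusted p = 0.0286, 6.25% called, median -0.02, with 0 lower at an unadjusted p under 0.05). None of this list passed at an offset of 1, without the filter, with the filter at the 60th percentile or without WT replicate 2, DKO replicate 1 or DKO replicate 2, and 2 passed without WT replicate 3. Among 4 tested fibroblast markers Pdgfrb was higher, beside 2.91% of all probe sets tested. The other 3 did not pass, with log2 changes of 0.56 for Col3a1, -0.31 for Col1a2 and -0.56 for Pdgfra. The sum over 7 genes, between 782 and 1376 (WT) and between 2568 and 2706 (DKO), was mostly the signal of Pdgfrb, and Col1a1 and Lum were under the bacterial control on every array. Their part in these results was not tested. The lists' shares stand beside the 5.03% of all probe sets.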

How the data were processed

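The deposited values are linear intensity. The trimmed mean (middle 96%) of every column equals 150, a scaling made before the authors deposited the table, with software and probe summary not given in the sources used here. Without 64 control probe sets the table has 45037, of which 34945 come with 1 gene symbol in the platform annotation.

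Here log2(intensity + 16) was taken, on deposited values, and arrays were median-centred. Probe sets under the 40th percentile of mean log2 value (4.87, an intensity of 13.2) were left out, which left 27022. Groups were compared with limma 3.58.1 in R 4.3.3 (lmFit, eBayes with an intensity trend), two-sided, with Benjamini-Hochberg adjustment over all probe sets tested at 0.05. SE is the moderated standard error. The number of arrays, 3 a group, sets the precision. Changes of probe sets under the filter come from the fit without it. The test was checked on simulated data.

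The members and lists were chosen with earlier results of these data known. The rule named Plau, Plat, Plaur, their inhibitors Serpinb2 and Serpinf2 among those analysed, every member with a mean intensity of 50 in a group or past the threshold, and up to 3 genes per companion list. Alternatives were no centring, quantile normalization, offsets of 1 and 64, other filters, no trend, array weights, a replicate block, 1 probe set per gene and each array left out. Promoter sequences come from RefSeq on GRCm38.p6.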

Additional observations from a re-analysis of the deposited data

How the results depend on the processing

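The direction of the 5 called probe sets was the same under each of the alternatives tried, and Plaur passed in all 17. The number of member probe sets called, 5 with all arrays, was 2 with the replicate number as a block (replicate block) and between 1 and 5 when single arrays were left out. The same-numbered arrays did not deviate together (correlations of -0.05, -0.13 and -0.29), so the numbers were not taken to pair the animals. Over all probe sets 1358 were called, with 3417 under array weights, 573 under the replicate block, and between 376 and 2744 without single arrays. With array weights, Serpinf1 (0.97, adjusted p = 0.0392) rose and Serpind1 (-1.07, adjusted p = 0.0338) fell as well. Over their alternatives the adjusted p was between 0.0392 and 0.546 for Serpinf1 and between 0.0338 and 0.343 for Serpind1. Probe set 1448301_s_at of Serpinb1a lost its call at an offset of 1 (adjusted p = 0.0667), without the filter (0.0717), without the trend (0.0515) and under the replicate block (0.106), as did Serpinb6a (0.111) and Serpinb6b (0.106) under the block, with adjusted p between 0.0109 and 0.168 for the first, between 0.00236 and 0.128 for the second and between 0.00204 and 0.129 for the third over all alternatives. The companion lists together held 8 called probe sets, 5 at an offset of 1, 5 without the filter, 14 under array weights, 4 under the replicate block and between 3 and 14 without single arrays. Under the replicate block no plasminogen partner and 1 target protease were called. The cause of these shifts was not tested. Signal near the bacterial controls limits what can be said of most members.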
